A study of Homo sapiens with 6 samples.

Results

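Semaphorins, plexins and neuropilins were followed in Ovcar8, an established human cell line labelled as ovarian cancer and, in the design text, as high-grade serous. The family was taken as every protein-coding gene of the count table whose symbol begins with SEMA3 to SEMA7 or with PLXNA, PLXNB, PLXNC or PLXND, or is NRP1 or NRP2. That gave 31 of 58735 genes: 20 semaphorins, 9 plexins and 2 neuropilins. The family was chosen by the higher counts of SEMA3B without serum in these libraries. The values of SEMA3B, and every fold change between these 2 groups, are therefore a description and not an independent test. The first group of 3 RNA libraries came from serum-starved cells, held for 48 h without fetal bovine serum (FBS). The other 3 libraries came from cells of the same line kept in RPMI-1640 medium with 5% FBS, also with a time of 48 h. Separate cultures are not stated for the libraries in the labels, and the p-values therefore measure only a spread that may be technical.

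Semaphorins are secreted, membrane-spanning or lipid-anchored ligands, first described as guidance cues for growing axons and later in vessels, immune cells and tumours. Plexins are their main receptors. A plexin holds a GTPase-activating domain that switches off Ras-related GTPases, and its activation loosens integrin adhesion and rearranges actin. The secreted class 3 semaphorins mostly need a neuropilin, a co-receptor with a short cytoplasmic tail that also binds vascular endothelial growth factors. SEMA3B lies in the 3p21.3 region that is often lost in lung and other carcinomas. It has been described as a p53-induced gene and as a candidate tumour suppressor, and its protein signals through neuropilins.

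SEMA3B (ENSG00000012171, chromosome 3, 50267558 to 50277546, plus strand, GRCh38) and SEMA3F (ENSG00000001617, chromosome 3, 50155045 to 50189075, plus strand) are class 3 ligands that sit near each other in the same orientation. Their promoters are shown because SEMA3B was the member that differed most clearly between the groups and SEMA3F, its closest relative in position, did not. RefSeq promoter windows on GRCh38.p14 were used, choosing for each gene the start site closest to the 5′ end of the deposited gene model. For SEMA3B that start site was 94 bases from the deposited end, and RefSeq listed 5 windows for this gene. Gene-level counts cannot tell which start site was used. The 250 bases before the start site are printed 5′ to 3′, with GGGCGG (the core of the GC box, a site of the SP factors) and CCAAT in capitals on either strand.
SEMA3B, chr3:50267402-50267651, plus strand: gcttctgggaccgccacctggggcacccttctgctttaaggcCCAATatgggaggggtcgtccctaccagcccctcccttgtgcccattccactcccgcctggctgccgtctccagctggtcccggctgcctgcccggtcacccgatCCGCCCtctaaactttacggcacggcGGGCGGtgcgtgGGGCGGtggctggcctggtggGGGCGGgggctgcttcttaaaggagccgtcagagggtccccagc
SEMA3F, chr3:50154808-50155057, plus strand: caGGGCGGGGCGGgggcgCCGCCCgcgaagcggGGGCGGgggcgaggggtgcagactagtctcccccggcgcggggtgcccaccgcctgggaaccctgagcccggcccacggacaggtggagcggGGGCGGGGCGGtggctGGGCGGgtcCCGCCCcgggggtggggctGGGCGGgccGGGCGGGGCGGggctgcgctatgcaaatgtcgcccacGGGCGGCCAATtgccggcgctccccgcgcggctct

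The SEMA3B promoter held 4 copies of GGGCGG, beginning at -103, -77, -65 and -44 from the start site, and 1 CCAAT at -208. The SEMA3F promoter held 12 copies of GGGCGG, several of them overlapping, and 1 CCAAT that abuts the last copy. Both strands of 300 bases (250 before and 50 after the start) were searched in 27 members and in 14886 protein-coding genes with a window. GGGCGG occurred in 20 of the 27 member windows (74.1%) and in 59.7% of all windows. At least 4 copies, as in SEMA3B, occurred in 8 member windows and in 13.2% of all windows. CCAAT occurred in 29.6% of member windows and 36.4% of all. Neither SEMA3B nor SEMA3F held CACGTG, TGACGTCA or TATAAA, which occurred in 8.93%, 2.56% and 9.51% of all windows. Member windows had a median GC content of 66.7%, against 63.0% over all windows, and SEMA3B stood at 68.7%. These matches are letters in a window and do not show that a factor binds there. NRP1, SEMA3A, SEMA6A and SEMA6B had no entry.

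The 6 libraries held 16379416 to 19558484 counts assigned to genes. Serum-starved replicate 3, serum-starved replicate 1 and FBS replicate 1 stood apart by base composition. From the lowest to the highest decile of transcript GC content, the median log2 deviation of a gene from its mean over libraries climbed in serum-starved replicate 1 (-0.70 at the low end, 0.48 at the high end). It declined in serum-starved replicate 3 (0.29 and -0.47) and in FBS replicate 1 (0.79 and -0.27). The members that could be tested had a median GC content of 60.1%, above the median of 50.7% for all tested genes. Of 13 carcinoma and epithelial markers, PAX8, MSLN, KRT7, KRT8 and KRT18 were well above 1 FPKM in both groups. MUC16 and SOX17 were at 0 in all 6 libraries, and CDH1 averaged 0.0745 FPKM in serum-starved libraries and 0.0982 FPKM with FBS. In all, 6 of the 13 were under 1 FPKM in every library, WT1, KRT19 and CLDN4 being the others. EPCAM lay on both sides of 1 FPKM in each group, and CLDN3 averaged 3.40 FPKM in serum-starved libraries and 2.25 FPKM with FBS. Of 8 mesenchymal markers, VIM, CDH2 and COL1A1 were present. COL1A2, COL3A1, DCN, LUM and PDGFRA were under 1 FPKM in every library, with COL1A2 and DCN at 0 in all. The list summed to 282 to 304 FPKM in serum-starved libraries and 266 to 278 FPKM with FBS. Within it COL1A1 had 79.1, 82.3 and 75.6 FPKM in serum-starved libraries, against 31.2, 57.2 and 57.6 FPKM with FBS, and its groups did not overlap (edgeR adjusted p = 0.457). Endothelial, immune and neuronal markers (5 each) were under 1 FPKM in every library. Their summed FPKM reached at most 0.557, 0.600 and 0.436 in serum-starved libraries and 0.363, 0.554 and 0.529 with FBS. Of these, the endothelial VWF had 62, 24 and 60 counts in serum-starved libraries and 6, 8 and 4 with FBS (edgeR adjusted p = 0.134). VWF passed the low-count filter described below through the serum-starved libraries alone, so a higher level there was built into its being tested. The part of the cell types of COL1A1 and VWF in the results was not tested.

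Levels were compared between genes as FPKM (fragments per kilobase of gene length, scaled by 1 factor per library that differed from the library total). Ovcar8 cells carried RNA of a broad set of semaphorins and plexins but little of either neuropilin. Among semaphorins the highest was SEMA7A, the lipid-anchored member that binds integrins and plexin C1. It had 15.4, 19.0 and 14.1 FPKM in serum-starved libraries, against 14.5, 15.8 and 14.3 FPKM with FBS. SEMA4C, a membrane ligand of plexin B2, had 12.5, 13.2 and 11.4 FPKM in serum-starved libraries, against 8.43, 12.5 and 10.7 FPKM with FBS. SEMA6B, a membrane ligand of A-type plexins, had 12.6, 10.2 and 11.7 FPKM in serum-starved libraries, against 5.24, 10.9 and 12.7 FPKM with FBS. The groups overlapped in all 3 genes, and the low value of SEMA6B with FBS was that of replicate 1. These 3 genes together made up 55.4%, 58.0% and 62.2% of the summed semaphorin FPKM in serum-starved libraries, against 67.0%, 64.7% and 63.0% with FBS.

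**Figure D1:**
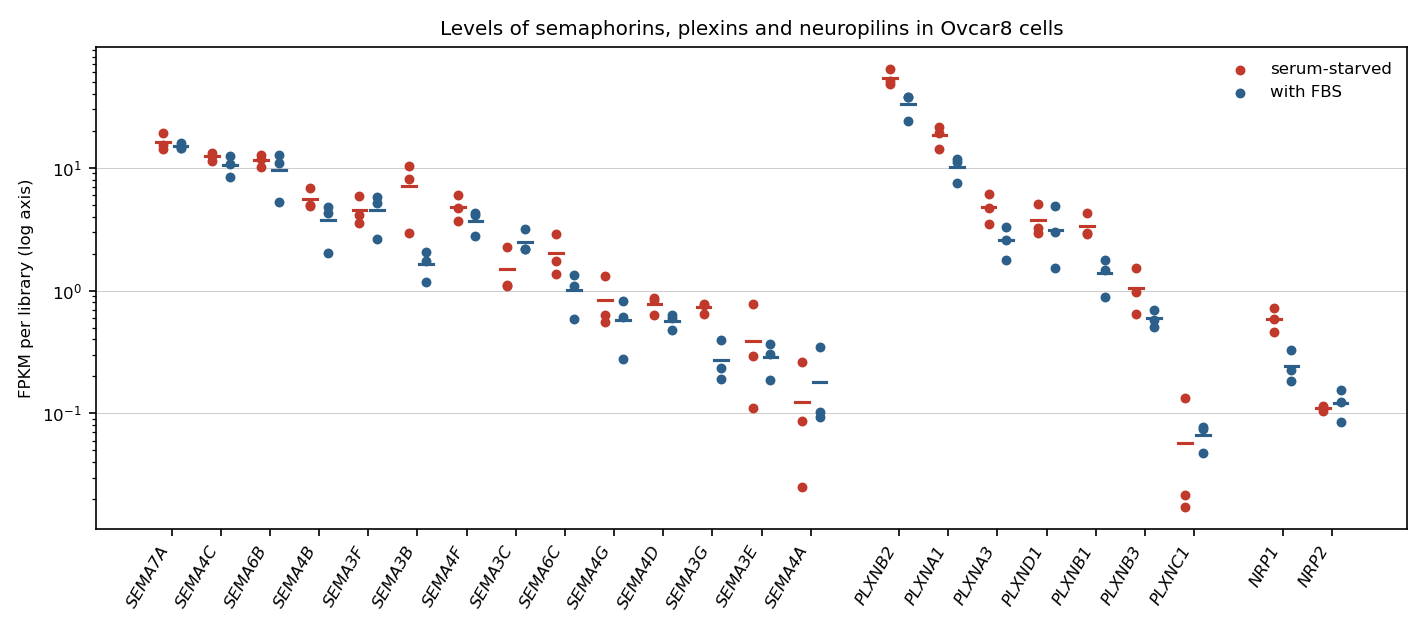
FPKM in each library (log axis) for the 23 members that passed the low-count filter and had no library at 0, by class and in order of mean level; points are libraries and bars are group means. PLXNB2 lies at the top, and both neuropilins lie under 1 FPKM in all libraries. On this axis the distance between group means is widest for SEMA3B and SEMA3G.

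The receptors were led by PLXNB2, the B-type plexin that SEMA4C binds. It had 63.6, 48.0 and 50.7 FPKM in serum-starved libraries, against 24.1, 37.4 and 37.4 FPKM with FBS. PLXNA1, a partner of neuropilins in class 3 semaphorin receptors, had 19.1, 14.3 and 21.5 FPKM in serum-starved libraries, against 7.47, 11.8 and 11.1 FPKM with FBS. Each serum-starved library lay above each library with FBS in both genes, and FBS replicate 1 was the lowest. PLXNA3, another A-type plexin, had 6.14, 3.46 and 4.72 FPKM in serum-starved libraries, against 1.78, 2.58 and 3.32 FPKM with FBS. PLXNB2 and PLXNA1 together gave 84.4%, 85.8% and 84.4% of the summed plexin FPKM in serum-starved libraries and 86.7%, 86.2% and 82.3% with FBS.

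The neuropilins were low. NRP1, the co-receptor of SEMA3A and of VEGFA, had 0.589, 0.463 and 0.722 FPKM in serum-starved libraries, against 0.327, 0.224 and 0.182 FPKM with FBS, and the groups did not overlap. NRP2, the preferred co-receptor of SEMA3F, had 0.105, 0.111 and 0.114 FPKM in serum-starved libraries, against 0.155, 0.0844 and 0.124 FPKM with FBS, and the groups overlapped. By mean FPKM over the 6 libraries, NRP1 stood above 16.2% and NRP2 above 2.91% of the 13772 genes tested, and PLXNB2 above 91.6%.

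In the order of levels, the ranges of PLXNB2 and PLXNA1 over 3 libraries were separate from each other and from those of the plexins below them in both groups. PLXNA3, PLXND1 and PLXNB1 overlapped one another in serum-starved libraries. With FBS the range of PLXND1 overlapped those of PLXNA3 and PLXNB1. SEMA7A stood above SEMA4C in both groups. Below them, most neighbouring semaphorins overlapped, so their order is not resolved. SEMA3B was the fourth highest semaphorin by mean FPKM in serum-starved libraries and the eighth with FBS. In serum-starved libraries its range overlapped those of SEMA6B above it and SEMA4B below it. With FBS its range overlapped that of SEMA6C below it but not that of SEMA3C above it.

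Counts of 3 members were near the floor or at 0. PLXNA2 and PLXNA4, A-type plexins, had 0 counts in all 6 libraries, which allows a level of up to 0.132 to 0.204 CPM (counts scaled to library size with TMM) depending on the library. SEMA5B had 3 counts in all, all in FBS replicate 2. SEMA3A, SEMA3D and SEMA6D had 23, 38 and 13 counts over the 6 libraries. These 6 genes did not pass the low-count filter (at least 10 counts, scaled to library size, in 3 libraries), and 25 members did: 16 semaphorins, 7 plexins and both neuropilins. Limits from counts cover counting error only.

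Whether the family differed between the groups was read from edgeR's quasi-likelihood test across all 13772 genes and adjusted by Benjamini-Hochberg, with calls made under 0.05. SEMA3B was the member called higher in serum-starved cells, 1 of 25, beside 0.240% of all genes called higher. No member was called lower, beside 0.0436% of all genes. At an unadjusted p under 0.05, 9 members were higher and 0 lower, beside 6.01% and 4.37% of all genes. DESeq2 called 2 members higher (SEMA3B and PLXNB1) and 0 lower, beside 0.857% and 0.305% of all genes. Limma-voom called 0 members, beside 0.225% of all genes higher and 0.0508% lower. In 11 members every library of one group lay beyond every library of the other by CPM, all of them higher in serum-starved libraries, beside 10% of all genes higher (1383 of 13772) and 7.65% lower. Among the 11, SEMA4D was separate only by 9.166 against 9.164 CPM. Margins were also narrow for SEMA6C (8.19 against 7.994 CPM), SEMA4B (35.27 against 34.32 CPM) and PLXNA3 (41.71 against 39.65 CPM). The log2 fold change was above 0 in 20 of 25 members and in 48.5% of all genes. Its median was 0.48 over the members and -0.02 over all genes. After each library was corrected for transcript GC content and length, 20 of 25 were still above 0, and the medians were 0.37 and 0.01. When single libraries were left out, the member count and median varied. They were lowest without FBS replicate 1 (18 of 25, median 0.24) and highest without FBS replicate 3 (22 of 26, median 0.63). Only members that passed the filter enter these counts, and SEMA5A passed it through its serum-starved libraries alone. The family was chosen through this comparison, and nothing further is read from these counts.

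SEMA3B had 8.06, 10.3 and 2.94 FPKM in serum-starved libraries, against 1.18, 2.05 and 1.73 FPKM with FBS. The groups did not overlap, and serum-starved replicate 3 lay far below the other 2 serum-starved libraries. The counts behind these values were 699, 1111 and 396 in serum-starved libraries and 139, 202 and 157 with FBS. As CPM, the level was 42.0 ± 22.3 in serum-starved libraries and 9.77 ± 2.51 with FBS (SD, n = 3 each). The fitted difference was 4.30-fold, or 2.10 on the log2 scale (standard error, SE, 0.41), and the adjusted p in edgeR was 0.0318. The member with the next smallest p, PLXNB1, had an edgeR adjusted p of 0.172. These libraries are bulk RNA, in which fewer cells with a transcript and less transcript per cell cannot be told apart.

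The call of SEMA3B depended on single libraries. It passed without serum-starved replicate 1 (edgeR adjusted p = 0.0402) and without serum-starved replicate 3 (2.20e-05). It did not pass without serum-starved replicate 2 (0.26), FBS replicate 1 (0.569), FBS replicate 2 (0.0779) or FBS replicate 3 (0.142), and its log2 fold change ranged from 1.73 to 2.47 over these 6 fits. With the GC and length correction it was 1.88 (edgeR adjusted p = 0.00664), and over all alternatives the adjusted p ran between 8e-06 and 0.719. A microRNA gene, MIR6872, shares 62 bases (1.07%) of SEMA3B's exons, and it had 0 counts in every library.

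The ratio of SEMA3B to SEMA3F inside a library does not depend on how libraries are scaled. It was 1.37, 2.89 and 0.714 in serum-starved libraries, against 0.451, 0.399 and 0.299 with FBS, and the groups did not overlap. SEMA3F itself had 5.89, 3.56 and 4.12 FPKM in serum-starved libraries, against 2.61, 5.15 and 5.79 FPKM with FBS. The groups overlapped, with FBS replicate 1 the lowest library and serum-starved replicate 1 the highest, and the log2 fold change was 0.00 (SE 0.35, edgeR adjusted p = 0.999); its sign was negative with the GC and length correction (-0.10). SEMA3B made up 11.1%, 14.1% and 4.93% of the summed semaphorin FPKM in serum-starved libraries, against 2.80%, 3.39% and 2.89% with FBS. The summed semaphorin FPKM was 72.9, 73.0 and 59.6 in serum-starved libraries and 42.1, 60.6 and 59.9 with FBS. These sums overlapped.

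**Figure D2:**
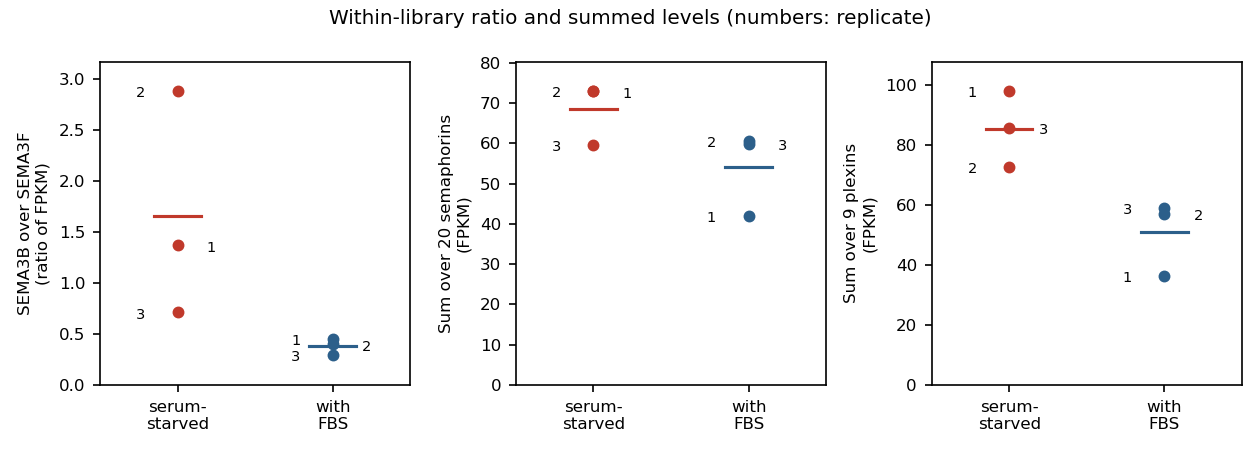
The ratio of SEMA3B to SEMA3F FPKM, the summed FPKM of the 20 semaphorins and the summed FPKM of the 9 plexins in each library, serum-starved at the left of each panel and FBS at the right, with points numbered by replicate and bars at group means. The ratio lies between 0.714 and 2.89 in serum-starved libraries and between 0.299 and 0.451 with FBS; the semaphorin sums overlap and the plexin sums do not.

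Of the other class 3 ligands, SEMA3G, which binds NRP2, had 0.770, 0.650 and 0.770 FPKM in serum-starved libraries, against 0.234, 0.398 and 0.191 FPKM with FBS. Its groups did not overlap (log2 fold change 1.41, SE 0.52, edgeR adjusted p = 0.35), on counts of 58, 61 and 90 in serum-starved libraries and 24, 34 and 15 with FBS. SEMA3C, which signals through neuropilins with plexin D1, ran the other way. It had 1.1, 1.09 and 2.26 FPKM in serum-starved libraries, against 3.14, 2.18 and 2.19 FPKM with FBS. Serum-starved replicate 3 lay among the libraries with FBS, and the difference did not pass (log2 fold change -0.75, SE 0.38, edgeR adjusted p = 0.517). SEMA3E, the ligand that binds plexin D1 without a neuropilin, had 0.111, 0.292 and 0.773 FPKM in serum-starved libraries, against 0.186, 0.369 and 0.302 FPKM with FBS. Its serum-starved libraries spread wider than the gap between the groups (log2 fold change 0.48, SE 0.61, edgeR adjusted p = 0.839), and without serum-starved replicate 3 the log2 fold change was -0.49.

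Among the membrane-bound semaphorins, groups did not overlap by CPM in SEMA4B, SEMA4D, SEMA5A and SEMA6C, and none of them passed. SEMA4B, a class 4 membrane ligand, had 4.95, 6.87 and 4.90 FPKM in serum-starved libraries, against 2.02, 4.82 and 4.31 FPKM with FBS (log2 fold change 0.59, SE 0.34, edgeR adjusted p = 0.565). SEMA4D, the ligand of plexin B1 and of the immune receptor CD72, had 0.836, 0.630 and 0.869 FPKM in serum-starved libraries, against 0.597, 0.476 and 0.634 FPKM with FBS. In FPKM its groups overlapped, with the lowest serum-starved library at 0.630 and the highest FBS library at 0.634. In CPM those libraries were all but level, at 9.166 and 9.164, and the groups were separate on that scale alone (log2 fold change 0.45, SE 0.36). SEMA6C, a class 6 membrane ligand, had 2.91, 1.74 and 1.37 FPKM in serum-starved libraries, against 0.589, 1.09 and 1.35 FPKM with FBS (log2 fold change 0.99, SE 0.42, edgeR adjusted p = 0.421). SEMA5A, a ligand of plexin B3 with thrombospondin repeats, rested on 19, 21 and 26 counts in serum-starved libraries and 2, 7 and 0 with FBS (log2 fold change 2.74, SE 1.05, edgeR adjusted p = 0.367). For SEMA5A the serum-starved libraries were close to one another, and FBS replicate 3 had no count. It passed the low-count filter through the serum-starved libraries alone, so a higher level there was built into its being tested.

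In the remaining semaphorins the groups overlapped. SEMA4F, a membrane ligand known from neurons, had a log2 fold change of 0.38 (SE 0.31). SEMA4C, SEMA6B and SEMA7A, the highest in level, had log2 fold changes of 0.23 (SE 0.28), 0.26 (SE 0.32) and 0.12 (SE 0.27). The sign of SEMA6B was negative without FBS replicate 1 (-0.038) and that of SEMA7A without serum-starved replicate 2 (-0.022). SEMA4G, a class 4 ligand, had a log2 fold change of 0.54 (SE 0.52), but 22.3% of its exon bases lie opposite those of MRPL43, a mitochondrial ribosomal protein gene with 824 to 2037 counts per library. Whether counting used strand is not given in the sources used here, so reads of the pair cannot be told apart and SEMA4G is uncertain. SEMA4A and SEMA6A were under 0.4 FPKM in every library, with log2 fold changes of -0.55 (SE 0.88) and -0.87 (SE 1.12).

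**Figure D3:**
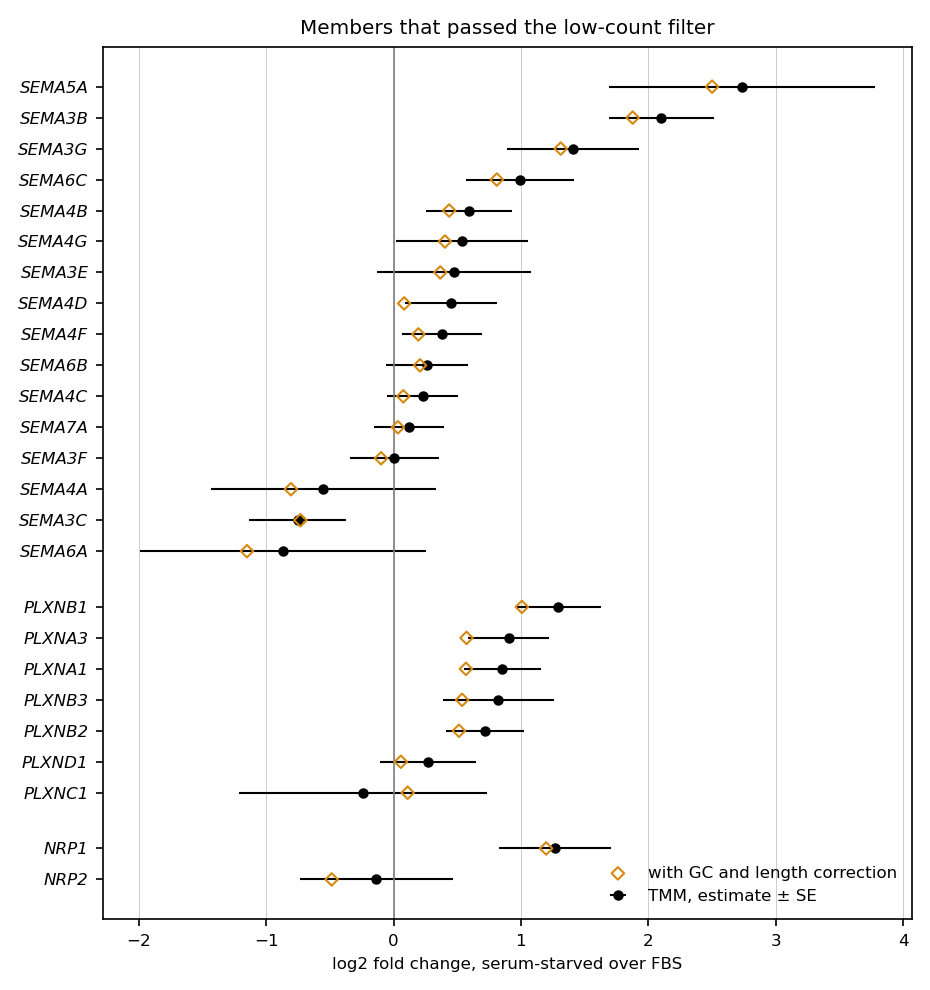
Log2 fold change of the 25 tested members, serum-starved over FBS, by class; black points with bars are edgeR estimates with TMM scaling ± SE, and open diamonds are the estimates with the GC and length correction. SEMA3B stands at 2.10 with TMM and 1.88 with the correction, SEMA5A is higher but with an SE of 1.05, and 20 of the 25 black points lie above 0.

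None of the 7 plexins tested passed, and in 4 of them the groups did not overlap. PLXNB1, the receptor of SEMA4D, had 4.30, 2.92 and 2.86 FPKM in serum-starved libraries, against 0.879, 1.78 and 1.47 FPKM with FBS. The groups did not overlap, and FBS replicate 1 was the lowest library. The log2 fold change was 1.29 (SE 0.34) with an edgeR adjusted p of 0.172. DESeq2 gave 0.0277, and edgeR gave 0.0213 without serum-starved replicate 3 and 0.0546 with the GC and length correction (log2 fold change 1.01). Its adjusted p over all alternatives ran between 0.0213 and 0.987.

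PLXNB2, PLXNA1 and PLXNA3 had log2 fold changes of 0.72 (SE 0.30), 0.85 (SE 0.30) and 0.90 (SE 0.32), with edgeR adjusted p-values of 0.419, 0.332 and 0.331. With the GC and length correction they were 0.51, 0.57 and 0.57. The 3 genes have transcript GC contents of 62.6%, 60.8% and 61.0%, and the part of base composition in their differences was not tested beyond that correction. PLXND1, the receptor of SEMA3E, had 3.21, 2.94 and 5.10 FPKM in serum-starved libraries, against 1.52, 2.99 and 4.89 FPKM with FBS, and the groups overlapped (log2 fold change 0.27, SE 0.38). PLXNB3, the receptor of SEMA5A, had a log2 fold change of 0.82 (SE 0.44, edgeR adjusted p = 0.535) with overlapping groups. On the same strand, 20.4% of its exon bases are shared with SRPK3, which had at most 6 counts in a library. PLXNC1, the plexin receptor of SEMA7A, held 63 counts over all 6 libraries (log2 fold change -0.24, SE 0.98). The summed plexin FPKM was 98, 72.6 and 85.6 in serum-starved libraries, against 36.4, 57.1 and 59.0 with FBS, and the groups did not overlap.

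NRP1 had the second highest estimate among the tested plexins and neuropilins, a log2 fold change of 1.27 (SE 0.44, edgeR adjusted p = 0.325), on 102, 100 and 194 counts in serum-starved libraries and 77, 44 and 33 with FBS. With the GC and length correction it was 1.20 (edgeR adjusted p = 0.127), and the adjusted p over all alternatives ran between 0.11 and 0.923. NRP2 did not separate (log2 fold change -0.14, SE 0.60), and its sign was positive without FBS replicate 1 (0.090).

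Levels are given side by side for 3 ligands and their receptors, chosen after the values were seen. SEMA7A averaged 16.2 ± 2.57 FPKM in serum-starved libraries and 14.9 ± 0.766 FPKM with FBS (SD, n = 3 each). Its plexin receptor PLXNC1 averaged 0.0578 ± 0.0665 and 0.0663 ± 0.0164 FPKM in the same groups. The beta-1 integrin ITGB1, which also serves as a SEMA7A receptor, averaged 9.76 ± 3.13 FPKM in serum-starved libraries and 15.6 ± 3.71 FPKM with FBS. ITGA1, the other integrin gene of the partner list, averaged 0.0836 ± 0.0446 and 0.0573 ± 0.0141 FPKM. SEMA4C and its receptor PLXNB2 were both high, PLXNB2 at 54.1 ± 8.33 FPKM in serum-starved libraries and 33.0 ± 7.71 FPKM with FBS. SEMA4D averaged 0.778 ± 0.13 FPKM in serum-starved libraries and 0.569 ± 0.0825 FPKM with FBS, under its receptor PLXNB1 at 3.36 ± 0.816 and 1.38 ± 0.457 FPKM.

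The position of SEMA3B was not used to choose the family, so its neighbours were examined. Of 20 protein-coding genes within 200 kb of SEMA3B on chromosome 3, 15 were tested, among them SEMA3F, which is also a member of the family. In edgeR none passed, beside 0.283% of all genes, and 0 had an unadjusted p under 0.05, beside 6.01% higher and 4.37% lower. DESeq2 and limma-voom also called 0, beside 1.16% and 0.276%. The groups did not overlap in 2 neighbours that were higher (HYAL3 and ZMYND10) and 1 that was lower (TUSC2), beside 10% and 7.65%. The median log2 fold change of the 15 was 0.00, the value of SEMA3F, with 8 above 0 and 7 below. The closest tested genes on either side were GNAI2, a G protein subunit, with a log2 fold change of 0.06 (SE 0.31), and IFRD2, a ribosome-binding protein gene, with -0.37 (SE 0.33). The sign of GNAI2 was negative with the GC and length correction (-0.18). The range ran from -0.53 (SE 0.36) for HYAL2, a hyaluronidase gene, to 0.88 (SE 0.50) for SLC38A3, an amino acid transporter gene, all of these but GNAI2 and IFRD2 named after their values were seen. The difference between SEMA3B and each neighbour was not tested.

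**Figure D4:**
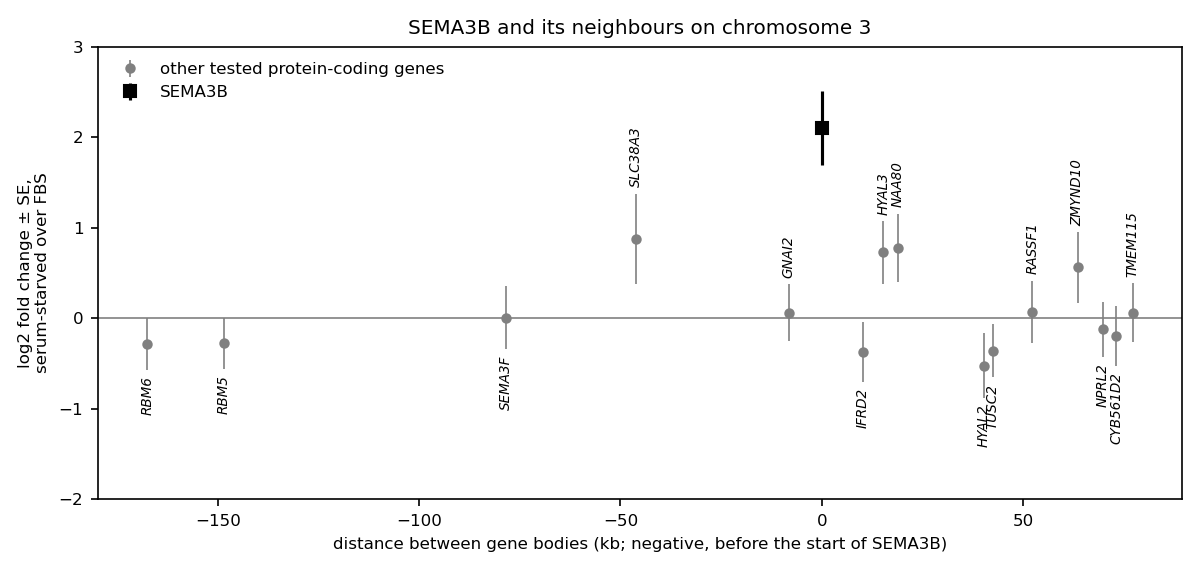
Log2 fold change ± SE, serum-starved over FBS, of SEMA3B (square) and of the 15 tested protein-coding genes within 200 kb (circles), plotted by the distance between gene bodies in kb. SEMA3B stands at 2.10 and its neighbours lie between -0.53 and 0.88.

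Partners of the pathway were listed by role: 12 receptors and co-receptors, 4 growth factor ligands of neuropilins, 33 intracellular effectors and 7 processing proteases. Of these 56 genes 50 were tested and none passed in edgeR, beside 0.283% of all genes called in either direction. At an unadjusted p under 0.05, 6 were higher and 2 lower, beside 6.01% and 4.37% of all genes. The groups did not overlap in 12, of which 9 were higher and 3 lower, beside 10% and 7.65%. DESeq2 called 2 partners higher, L1CAM and DPYSL2, beside 0.857% of all genes, and limma-voom called 0, beside 0.276% in either direction. The median log2 fold change was 0.19, and by role it was 0.48 for receptors and co-receptors, -0.23 for growth factors, 0.15 for effectors and 0.27 for proteases.

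DPYSL2 encodes CRMP2, the microtubule-binding protein through which SEMA3A collapses growth cones. It had 8.16, 8.76 and 14.5 FPKM in serum-starved libraries, against 4.15, 3.9 and 3.59 FPKM with FBS. The groups were far apart, with serum-starved replicate 3 the highest. The log2 fold change was 1.44 (SE 0.30), with an adjusted p of 0.0587 in edgeR, 0.00118 in DESeq2 and 0.0251 in edgeR with the GC and length correction, and between 0.00118 and 0.699 over all alternatives. L1CAM, named after its values were seen, encodes an adhesion molecule that joins NRP1 in the SEMA3A receptor. It had 27.5, 26.6 and 23.5 FPKM in serum-starved libraries, against 7.05, 12.1 and 11.4 FPKM with FBS. Its groups were also far apart (log2 fold change 1.35, SE 0.30), with an adjusted p of 0.0699 in edgeR, 0.00129 in DESeq2 and 0.01 in edgeR with the correction, and between 0.00129 and 0.681 over all alternatives.

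None of the partners fixed for naming passed in edgeR, DPYSL2 included, and apart from DPYSL2 only FURIN had groups that did not overlap. MET, the hepatocyte growth factor receptor that associates with B-type plexins, had a log2 fold change of 0.23 (SE 0.44), and of -0.57 without serum-starved replicate 3. VEGFA, the growth factor that binds NRP1, had 0.65 (SE 0.41). FURIN, the protease that cuts class 3 semaphorins, had 0.40 (SE 0.28); its libraries were 10.5, 8.87 and 7.89 FPKM in serum-starved cells and 6.17, 6.91 and 7.62 FPKM with FBS, and they did not overlap. GIPC1, the adaptor of the NRP1 tail, had -0.43 (SE 0.36), and RRAS, a GTPase that plexins switch off, -0.22 (SE 0.35). MICAL2, an actin-oxidizing enzyme, had 0.37 (SE 0.29), and -0.037 with the GC and length correction. ARHGEF12, whose protein is bound by B-type plexins, had 0.19 (SE 0.43), and -0.62 without serum-starved replicate 3.

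**Figure D5:**
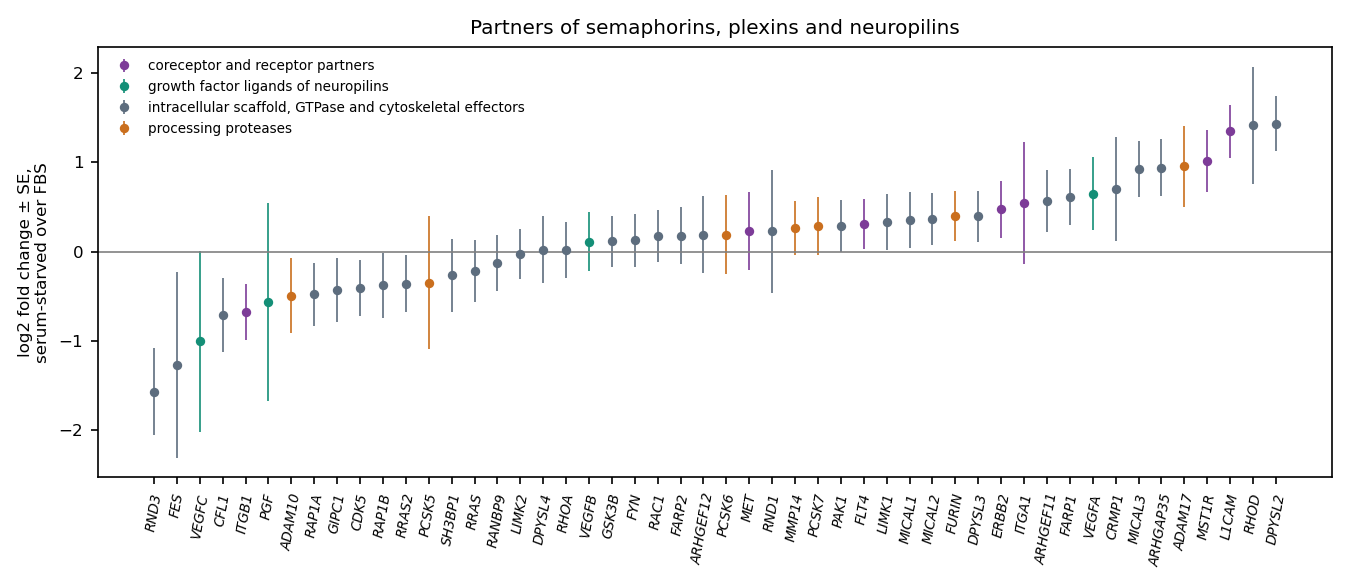
Log2 fold change ± SE, serum-starved over FBS, of the 50 tested partner genes in order, coloured by role. DPYSL2 (1.44) and L1CAM (1.35) stand near the high end with short bars, and RND3 (-1.57) stands at the low end.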

How the data were processed

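The 6 RNA libraries were grouped by treatment, and the titles gave replicate numbers. RNA, per the labels' protocols, was extracted with Trizol and a column with DNase treatment, and libraries were made with a NEBNext Ultra kit and read on a NovaSeq instrument. GRCh38, STAR 2.6.1 and DESeq2 are named, without a role, per the submitters' processing notes. For counting, the sources used here give neither tool nor strand setting. The authors deposited raw counts per gene and FPKM values. In each library the deposited FPKM equalled count over gene length times 1 factor, which differed from the library total. Gene models matched GENCODE 29 in 58724 of 58735 genes.

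Counts were filtered with filterByExpr (minimum count 10, minimum total 15), scaled with TMM and compared with edgeR 4.0.16 in R 4.3.3 (glmQLFit with robust estimation, glmQLFTest), adjusted over 13772 genes. The SE is the log2 fold change over the square root of F. DESeq2 1.42.0, limma 3.58.1 and other settings were alternatives. GC content is the mean over GENCODE 29 transcripts, and its correction entered splines of GC and length (5 degrees of freedom) as offsets. The test was run on simulated data with known changes. Counts per library were 16379416 to 19558484. Exon overlaps came from GENCODE 29 and promoters from RefSeq (GRCh38.p14). Protein sequences were not used here.

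The members and lists were chosen with earlier results of these data known. Named genes were all members, fixed partners, any partner past the threshold, and the closest tested neighbours of SEMA3B with SEMA3F; others are marked where they appear.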

Additional observations from a re-analysis of the deposited data

How the results depend on the processing

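The labels do not tie same-numbered libraries, and their deviations from the group means correlated at -0.257, 0.0967 and -0.0818. With 3 libraries per group these correlations cannot show whether same-numbered libraries were prepared together, so pairing is unknown. With a replicate block the counts of called genes were 1 member, 43 of all genes and 0 partners, against 1, 39 and 0 without it. With the replicate block and the GC and length correction they were 1, 145 and 2. The number of members called was 0 with library totals alone, limma-voom, limma on FPKM (3 settings) and an adjusted p under 0.01, and 2 with DESeq2. It ranged from 0 to 2 when a library was left out. The number over all genes was 25 with library totals alone, 127 with no low-count filter, 160 with DESeq2, 115 with the GC and length correction, 2 with limma on log2(FPKM + 1) without a filter, 13 at an adjusted p under 0.01, and 4 to 257 when a library was left out. The number of partners was 1 with library totals alone, 2 with no low-count filter, DESeq2 and the GC and length correction, and 0 to 2 when a library was left out. The causes were not tested.

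Log2 fold changes of single genes kept direction and side of the threshold in 713 of the fits, lost the call in 10 (each SEMA3B) and gained it in 14. The sign turned in 26, none of a called gene. When a library was left out, the ranges of these genes were -0.33 to 0.090 for NRP2, -0.066 to 0.75 for PLXND1, -1.72 to 0.20 for PLXNC1, -0.022 to 0.21 for SEMA7A, -0.038 to 0.52 for SEMA6B, -0.27 to 0.23 for SEMA3F and -0.49 to 0.94 for SEMA3E. They were -1.68 to 0.32 for SEMA4A, -1.58 to 0.14 for SEMA6A, -0.57 to 0.57 for MET, -0.50 to 0.12 for RRAS, -0.62 to 0.54 for ARHGEF12 and -0.097 to 0.25 for GNAI2. With the GC and length correction the sign turned in PLXNC1 (0.11), SEMA3F (-0.098), MICAL2 (-0.037) and GNAI2 (-0.18). With the correction and the replicate block it turned in SEMA3F (-0.091), MICAL2 (-0.031) and GNAI2 (-0.19). SEMA3F was at -0.0055 with no low-count filter and ARHGEF12 at -0.015 with the replicate block. SEMA3B ranged over all alternatives between 1.49 and 2.47. Depth limits the low members: a count of 3 in a library is 0.132 to 0.204 CPM.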

Other observations

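Of the partners whose groups did not overlap, RND3, ITGB1 and MST1R were named after their values were seen, and they lay on both sides. RND3, listed among the effectors, had 0.537, 1.35 and 0.858 FPKM in serum-starved libraries, against 4.50, 1.89 and 1.75 FPKM with FBS. Its log2 fold change was -1.57 (SE 0.49, edgeR adjusted p = 0.272), the lowest of the tested partners, and FBS replicate 1 was the highest library. ITGB1, the beta-1 integrin that serves as a SEMA7A receptor, had 6.59, 9.87 and 12.8 FPKM in serum-starved libraries, against 19.9, 13.7 and 13.2 FPKM with FBS. Its groups nearly met (log2 fold change -0.68, SE 0.31, edgeR adjusted p = 0.464). MST1R, a receptor tyrosine kinase that associates with plexin B1, had 3.8, 2.41 and 3.14 FPKM in serum-starved libraries, against 1.54, 1.5 and 1.59 FPKM with FBS. Its libraries with FBS were close to one another, and the difference did not pass (log2 fold change 1.02, SE 0.35, edgeR adjusted p = 0.315).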
